A study of Heliconius melpomene malleti and Heliconius melpomene plesseni with 96 samples.

Results

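The Yb locus of Heliconius melpomene is known from genetic crosses as a place in the genome that controls yellow and white elements of the wing pattern. Sequenced clones across such a locus form a walk, and transcribed stretches found in the YB walk were put on the array beside the predicted genes of scaffold HE667780. The members described here are all 13 transcribed features of the YB walk and all 86 predicted genes of HE667780, which are 99 of the 12832 features measured. The rule that chose them uses these names alone and no measured value, although it was set with earlier results of these data known. The scaffold genes run from 2219 to 1319346, and the walk features run from 449912 to 791187 in the walk's own numbering; no source used here gives the build. No member carries a gene name, and 0 of the 99 matched the RefSeq gene table of this species (assembly ASM5695672v1). Members are therefore named by their positions, and a gene is called by its start after its first mention.

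As background, wing scale cells of butterflies take up their colour late in pupal life, after earlier pupal days in which patterning genes set out which cells will make which pigment. The gene cortex, a relative of cell cycle regulators of the Cdc20 family, lies in the Yb region and is known as its colour pattern switch. Neighbouring genes of a colour locus are of interest because a regulatory difference between races may act on any of them. Which of the members is cortex is not given in the files, so no value below is assigned to it.

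RNA came from pupae of 2 Heliconius melpomene races with unlike wing patterns, malleti and plesseni, both without any stated treatment. Proximal forewing, distal forewing, hindwing and eye were each taken on days 1, 3, 5 and 7. With 3 replicates this made 32 groups, which gave 96 Cy3 arrays, 1 sample to an array. Whole wing sections and eyes were measured, so fewer cells of a type and less RNA per cell cannot be told apart, and the sources used here do not say whether sections came from the same individuals. Values are log2 intensities after quantile normalization of the 96 arrays, and differences are log2 differences with their standard error.

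The deposited arrays had median intensities between 22.98 and 376, with a median of 125. Of the 96, 10 arrays were dim, with a median log2 intensity under 5.5. No member has a gene name, and the tissue labels were not checked against marker genes. Instead each array was set against the other arrays of its day, and 3 arrays were more like the other kind of tissue. Replicate 67, labelled malleti eye on day 7, had a rank correlation of 0.873 with the eye arrays and 0.975 with the wing arrays. Replicate 69, labelled malleti proximal forewing on day 7, had 0.869 with the wing and 0.980 with the eye. Replicate 55, a dim malleti distal forewing array of day 3, had 0.653 and 0.761. These 12 arrays are called doubted below, and results that rest on them are given with and without them. Replicates 8 and 60, both dim, are 2 of the 3 plesseni eye arrays of day 3. Of the 99 members, 23 lay in the 25% of all features with the lowest mean signal.

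In the wing, 56 of 99 members were called in at least 1 of the 3 steps between days, beside 55.8% of all features, at an adjusted p under 0.05 in limma's test over all features. From day 1 to day 3, 15 members rose and 12 fell. The 27 called members compare with 29.7% of all features called in that step, 13.9% higher and 15.8% lower. From day 3 to day 5, 9 rose and 29 fell, beside a background of 41.1% of all features, 17.8% higher and 23.2% lower. The median change in that step was -0.23 over the members and -0.098 over all features. From day 5 to day 7, 2 rose and 7 fell, beside 13.1%, of which 6.32% rose and 6.76% fell. On the deposited scale 0 rose and 3 fell in that last step. Without the 12 doubted arrays 10 rose and 6 fell in it, beside 19.7% of all features, 1348 rising and 1177 falling. In the main fit the members' share was in none of the 3 steps above that of the whole array. Without the 12 doubted arrays, 55 members were called from day 3 to day 5, 15 rising and 40 falling, beside 48.4% of all features. In all, 13 members were called in both of the earlier steps, beside 17.3% of all features: 9 rose by day 3 and fell by day 5, 2 fell and then rose, and 2 fell in both steps. The highest wing day mean was on day 1 in 38 members, on day 3 in 30, on day 5 in 16 and on day 7 in 15. The range of the 4 wing day means was at least 1 in 41 members, at least 2 in 13 and under 0.5 in 29, beside 40.4%, 14.2% and 26.6% of all features.

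**Figure D1:**
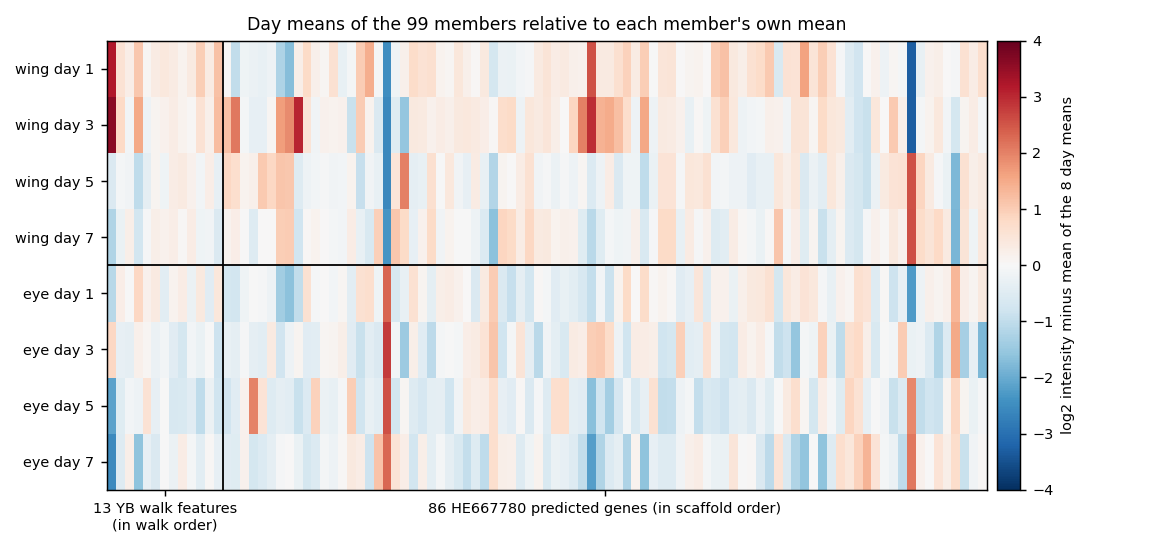
Mean log2 intensity of each of the 99 members (columns) on each day in the wing (mean of 18 arrays) and the eye (mean of 6 arrays), minus the member's own mean over the 8 means. Red cells are above and blue cells below that mean, and most columns are pale, with few members that change strongly between days or tissues.

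The members with the largest rises in the wing from day 1 to day 3 were the genes of scaffold order 2, 7, 8 and 9. The genes of order 3 to 6, which lie between them, were not called in that step. Gene HE667780:194605-232747 ranged from 3.27 to 6.82 over the 18 wing arrays of day 1, with a median of 4.46. On day 3 the 18 values ranged from 6.77 to 8.97, with a median of 8.21. The days overlapped only in the array at 6.82, which lay just above the lowest array of day 3. The rise was 3.58 ± 0.26 (12.0-fold, adjusted p = 5.50e-19). Its size was 2.97 in the proximal forewing, 3.76 in the distal section and 4.02 in the hindwing. The gene then stayed up, with medians of 7.44 on day 5 and 7.39 on day 7.

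Its neighbour HE667780:150410-171286 rose by 2.91 ± 0.25 (adjusted p = 4.00e-16) from a day 1 median of 3.57 to a day 3 median of 6.72. Its medians on days 5 and 7 were 5.78 and 5.88. Over the 96 arrays the values of these 2 genes had a Pearson correlation of 0.859, a description of points that share tissues and days. Their gap on the scaffold was 23318 bases. Gene HE667780:28605-48613 rose by 3.12 ± 0.22 (adjusted p = 2.25e-20). Its wing arrays lay between 2.92 and 4.03 on day 1 and between 4.85 and 9.10 on day 3, so the days did not overlap. It fell again by 1.46 ± 0.22 from day 3 to day 5 (adjusted p = 3.72e-08). The gene at the scaffold's low end, HE667780:2219-25547, rose by 1.13 ± 0.22 (adjusted p = 2.32e-05).

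Gene HE667780:285565-302984 marked day 3 in the wing. Its 18 wing values had medians of 5.80, 8.25, 4.86 and 4.49 on days 1, 3, 5 and 7. On day 3 they lay between 7.38 and 9.26, above every wing array of the other days, the highest of which was 6.71. It rose by 2.81 ± 0.19 (adjusted p = 2.25e-20) and fell by 3.55 ± 0.19 (11.7-fold, adjusted p = 2.01e-25). Both changes were seen in all 3 wing sections, the fall being 3.08 in the proximal forewing, 3.73 in the distal section and 3.85 in the hindwing.

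These 4 rises were larger in the wing than in the eye. The difference between the wing step and the eye step from day 1 to day 3 was called in 5 of the 99 members, beside 8.60% of all features. In 4 of these the wing step was higher and in 1 lower, beside 4.47% and 4.13%. It was 2.73 ± 0.43 for gene 28605 (adjusted p = 6.97e-06), 2.28 ± 0.50 for gene 150410 (adjusted p = 0.00127), 2.16 ± 0.53 for gene 194605 (adjusted p = 0.00452) and 1.72 ± 0.39 for gene 285565 (adjusted p = 0.00182). Without the 12 doubted arrays the 4 differences were 2.74, 2.32, 2.92 and 2.18, all called. The eye values show the same contrast in levels: gene 28605 had eye medians of 3.47 on day 1 and 4.07 on day 3, and its 6 eye arrays of day 3, between 3.34 and 4.27, were all below the lowest wing array of that day. The fifth called member, HE667780:949155-958304, had a wing step smaller than its eye step by 1.33 ± 0.38 (adjusted p = 0.0154). Without the doubted arrays that difference was -0.93 (adjusted p = 0.13). From day 3 to day 5 the wing and eye steps differed in 16 members, beside 14% of all features. The wing step was higher in 7 and lower in 9, beside 7.54% and 6.41%. On the deposited scale it was higher in 1 and lower in 19, where the median over all features was -0.84 against 0.0020 on the main scale, and without the doubted arrays 6 of the 16 calls were kept. From day 5 to day 7 the steps differed in 2 members, beside 0.577%, with 1 higher and 1 lower beside 0.249% and 0.327%.

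**Figure D2:**
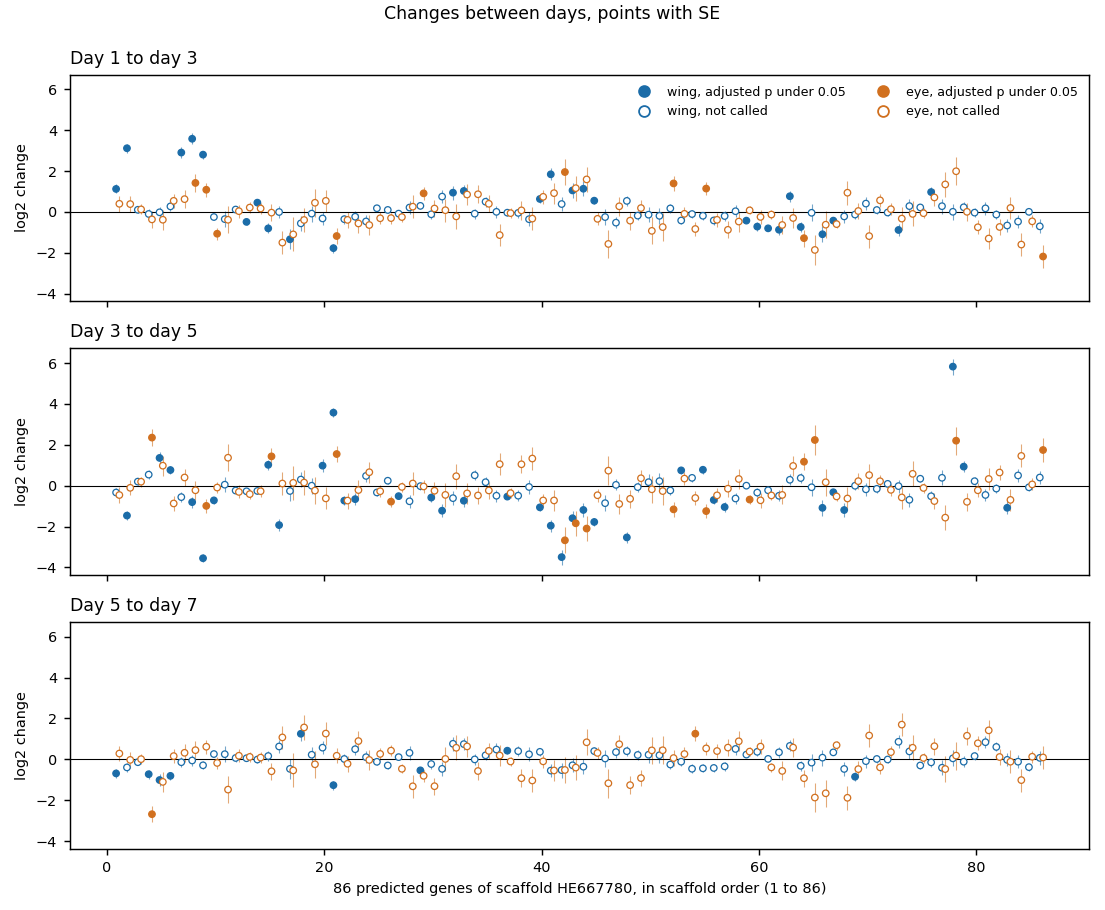
Log2 change between successive days (y axis, points with SE) for the 86 predicted genes in scaffold order (x axis), in the wing (blue) and the eye (orange). Filled points had an adjusted p under 0.05. The rises of genes 2, 7, 8 and 9 stand near the left of the upper panel, and the largest rise of all, 5.83, is gene 78 in the middle panel.

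The largest change between days was a rise from day 3 to day 5. Gene HE667780:1234411-1236211 had wing medians of 9.13 on day 1, 8.89 on day 3, 14.95 on day 5 and 14.97 on day 7. Day 3 values spread from 6.37 to 13.38, and all 18 day 5 values lay between 14.10 and 15.11, above them. The rise was 5.83 ± 0.40 (adjusted p = 9.87e-21). It was 5.84 on the deposited scale, 6.28 in the arrays scanned at gain 440 alone and 5.54 in those scanned at gain 460 alone, called in each. On days 5 and 7 its values were near 15.3, the highest value of the measured scale. In the eye it rose by 2.20 ± 0.69 over the same step (adjusted p = 0.0224), to a median of 14.32 on day 5 from 11.75 on day 3. The measured wing step exceeded the eye step by 3.63 ± 0.79 (adjusted p = 8.12e-04), with both tissues near the highest value on day 5 and the eye higher on day 3. These are differences of measured values, and whether the arrays were saturated on days 5 and 7 was not tested.

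Gene HE667780:463772-482472 had the reverse course of the day 3 genes. Its wing medians were 5.16, 3.14, 6.83 and 5.40 on days 1, 3, 5 and 7. It fell by 1.77 ± 0.21 to day 3, rose by 3.57 ± 0.21 to day 5 and fell by 1.26 ± 0.21 to day 7 (adjusted p = 1.87e-10, 2.25e-23 and 7.36e-06). All 18 day 5 values, from 5.19 upward, lay above the day 3 values, which reached 4.42. The eye showed a fall of 1.18 ± 0.37 and a rise of 1.55 ± 0.37 in the first 2 steps (adjusted p = 0.0327 and 0.00280). The rise to day 5 was larger in the wing than in the eye by 2.03 ± 0.43 (adjusted p = 5.29e-04), and this difference was 1.19 on the deposited scale (adjusted p = 0.216).

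**Figure D3:**
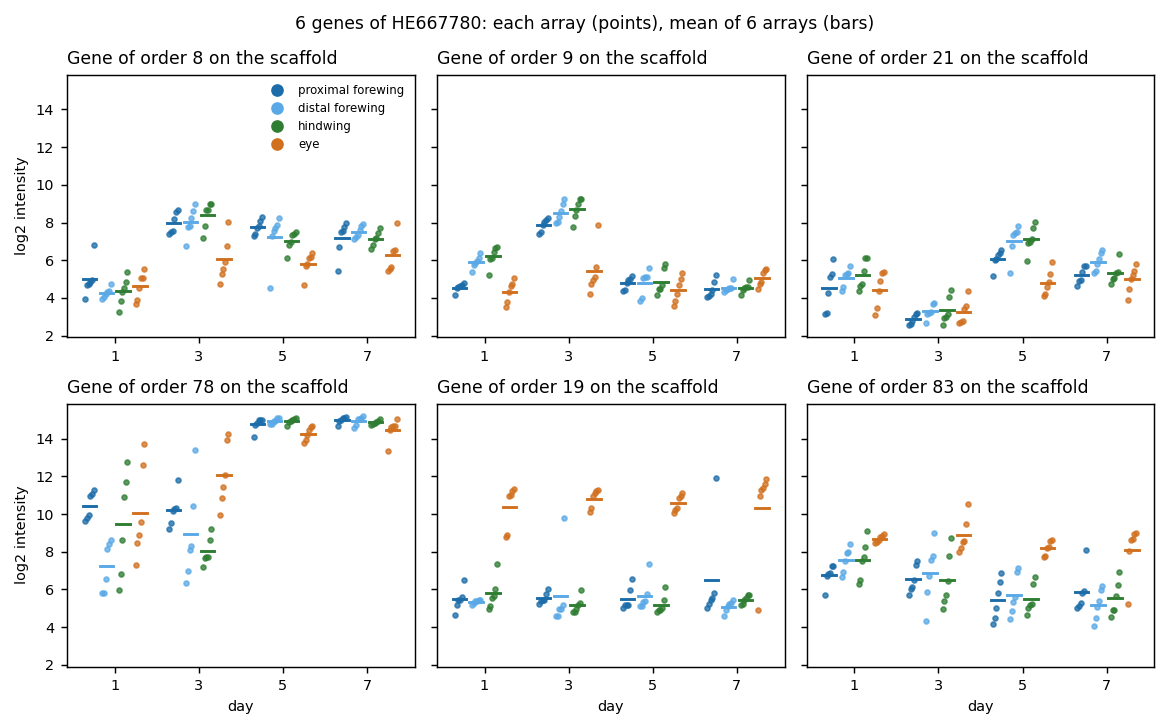
Log2 intensity (y axis) by day (x axis) of 6 scaffold genes, which start at 194605, 285565, 463772, 1234411, 450697 and 1284108 (orders 8, 9, 21, 78, 19 and 83). Points are arrays and bars are means of 6 arrays, both races together. The 2 genes in the lower row at the middle and right are higher in the eye, apart from single arrays, and gene 1234411, at the lower left, has the widest range of wing day means of the 6.

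Falls from day 3 to day 5 were the most frequent change in the wing. Of the 38 members called in that step, 22 changed at least 2-fold, and 18 of these fell and 4 rose, while 21.3% of all features changed that much, 10.6% falling and 10.7% rising. The walk feature YB_WALK:449912-464173 fell by 4.18 ± 0.36 (18.2-fold, adjusted p = 3.13e-16). Its 18 wing values lay between 8.96 and 11.27 on day 3 and between 4.53 and 7.79 on day 5, without overlap. Gene HE667780:670615-681472 fell by 3.50 ± 0.36 (adjusted p = 6.83e-13), with wing values from 7.75 to 10.79 on day 3 and from 4.27 to 7.67 on day 5. Genes HE667780:624527-627276 and HE667780:414733-417102 fell by 1.96 ± 0.30 and 1.93 ± 0.31 (adjusted p = 8.47e-08 and 4.62e-07). Gene HE667780:843832-867595 fell by 1.78 ± 0.18 (adjusted p = 2.32e-13), and its values reached 4.99 on day 5 against a lowest value of 5.23 on day 3. Among the others that fell at least 2-fold were HE667780:841353-841465 by 1.59, YB_WALK:787289-791187 by 1.56, HE667780:571676-572649 by 1.23, HE667780:1052679-1054601 and HE667780:843550-843630 by 1.19 each, HE667780:1046944-1048299 by 1.09, HE667780:1284108-1291214 by 1.08, HE667780:619896-623177 by 1.06 and HE667780:992698-999815 by 1.05. The fall of gene 571676 is a mean over races with unlike courses, given with race below. Its malleti wing values were already near the low end of the scale on day 3, where the plesseni values were higher. By day 5 no race difference was called. Besides genes 1234411 and 463772, the members that rose at least 2-fold were HE667780:122697-124379 by 1.36 ± 0.28 and HE667780:409336-412083 by 1.02 ± 0.24. Gene 122697 fell back by 1.01 ± 0.28 from day 5 to day 7 (adjusted p = 0.00762), while HE667780:434586-447615 rose by 1.25 ± 0.35 (adjusted p = 0.00892).

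Changes of at least 2-fold from day 1 to day 3 were called in 12 members, beside 15% of all features. Those not yet given were rises of 1.84 in gene 624527, 1.14 in gene 843550, 1.06 in gene 841353 and 1.03 in HE667780:573921-578593, and falls of 1.34 in HE667780:421500-422888 and 1.09 in gene 1046944. The 15 other members called in that step changed by less than 2-fold, with rises of 0.46 to 0.97 and falls of 0.42 to 0.88. From day 3 to day 5, the 16 called members under 2-fold had rises of 0.75 to 0.98 and falls of 0.32 to 0.89. Genes 841353, 843550 and 1046944 were measured by 1 probe each, and 78 of the 86 genes by 9. The fall of gene 421500 to day 3 was lost in 6 of the 96 fits that left out 1 array, and that of gene 1046944 without replicate 5.

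Of the 13 walk features, 5 had wing day means that ranged over at least 1, beside 40.4% of all features. None was called in the wing from day 1 to day 3 or from day 5 to day 7, beside 29.7% and 13.1% of all features. From day 3 to day 5, 4 were called, all of them falls, beside 41.1% of all features, 23.2% lower. Besides YB 449912 and YB 787289, these were YB_WALK:670119-671182, which fell by 2.52 ± 0.29 (adjusted p = 2.79e-11), and YB_WALK:638681-662339, which fell by 0.89. YB_WALK:750361-752778 had wing day means that ranged over 1.18 and was called in no wing step. YB 670119 had wing medians of 12.82, 13.43, 10.66 and 11.20 on the 4 days. Feature YB_WALK:684313-696904 had wing day means within 0.049 of each other.

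Some walk features appear to be measured again by a scaffold gene. The walk and the scaffold are numbered differently, so features were set beside each other by equal length or by the highest correlation of their values over the 96 arrays. YB 670119 and gene HE667780:875179-876242 are both 1064 bases long, and their values had a Pearson correlation of 0.986. Gene 875179, measured by 9 probes, fell by 2.53 ± 0.25 in the wing from day 3 to day 5 (adjusted p = 1.84e-13), next to 2.52 for the 3 probes of the walk feature. YB 449912 has no scaffold gene of its length of 14262 bases, and its closest course was that of gene 670615, of 10858 bases, with a correlation of 0.980; the gene with the next highest correlation, 624527, had 0.735. YB_WALK:671944-673071, of 1128 bases, has no scaffold gene of its length, and its highest correlation was 0.946, with HE667780:876837-877934, of 1098 bases. YB_WALK:673428-674525 shares its length of 1098 bases with genes 876837 and HE667780:878290-879387, with correlations of 0.493 and 0.495. Its highest correlation was 0.716, with HE667780:1292429-1293799, of 1371 bases, so likeness of values does not name its partner. By position it lies 204862 bases below gene 878290 at both ends, against 205060 for YB 670119 and gene 875179. The next walk feature, YB_WALK:674530-682676, and the next gene, HE667780:879392-886137, start within a few bases of this pair. Order thus places it beside gene 878290, although the walk feature read higher by a mean of 2.50. The arrays share tissues, days and scaling, so these correlations describe likeness only. Where 2 members measure the same transcript, they are not separate results. Likewise, gene 878290 lies inside HE667780:878156-879586, and their values had a correlation of 0.993.

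**Figure D4:**
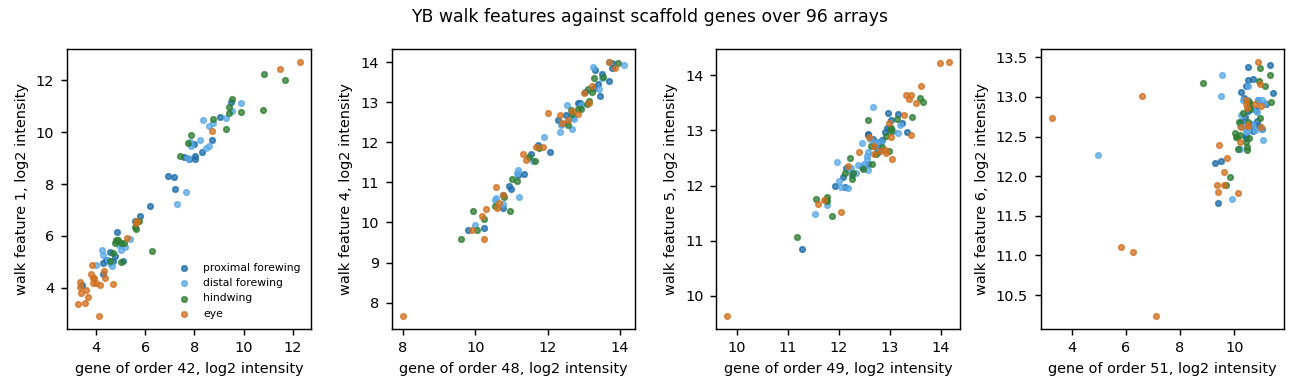
Log2 intensity of 4 YB walk features (y axes) against scaffold genes (x axes) over the 96 arrays, coloured by tissue. From left to right the walk features start at 449912, 670119, 671944 and 673428 and the genes at 670615, 875179, 876837 and 878290. Correlations were 0.980, 0.986, 0.946 and 0.495.

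Among neighbouring scaffold genes, likeness was modest. The median correlation over the 85 adjacent pairs was 0.213, and over all pairs of the 86 genes it was 0.0259. These are descriptions over 96 arrays with no test, and 11 pairs of genes overlap in position, so that part of the likeness can come from shared probes or transcripts.

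Most of the members differed between the eye and the wing. Averaged over days and races, 8 members were higher and 47 lower in the eye. The split depended on the scale, with 7 higher and 11 lower on the deposited scale and 6 higher and 61 lower on the scale centred on array medians. The 55 called members compare with 47.8% of all features, of which 17.2% were higher and 30.7% lower. The median difference was -0.40 over the members and -0.16 over all features, and on the deposited scale these were -0.14 and 0.034. At least 2-fold differences were called in 16 members, beside 13.9%. Gene HE667780:450697-452266 had the largest difference, 4.99 ± 0.28 (31.9-fold, adjusted p = 1.94e-25). Its eye medians were 10.99, 11.02, 10.58 and 11.33 on the 4 days, and its wing medians 5.42, 5.19, 5.16 and 5.34. The 3 arrays that departed from this were the 3 with doubtful tissue. Replicate 69, labelled proximal forewing, read 11.89, replicate 55 read 9.78, and replicate 67, labelled eye, read 4.93. All other eye arrays read 8.78 or more and all other wing arrays 7.35 or less. Without the 12 doubted arrays the difference was 5.52 (adjusted p = 7.76e-40), and it was 5.17 in the arrays at gain 440 alone and 5.06 in those at gain 460 alone, called in both. Its 4 wing day means differed by 0.22 at most, so this gene separated the tissues and not the days.

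Gene HE667780:1284108-1291214 was higher in the eye by 2.20 ± 0.23 (adjusted p = 4.28e-13), with eye medians of 8.70, 8.54, 8.22 and 8.63 and wing medians of 7.22, 6.49, 5.26 and 5.34. The other members higher in the eye by at least 2-fold were gene 571676, by 1.74 ± 0.23, and the overlapping genes HE667780:1075584-1144016 and HE667780:1072243-1077140, by 1.47 ± 0.12 and 1.01 ± 0.13. The last 2 hardly moved in the wing, where their day means ranged over 0.089 and 0.16.

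Lower in the eye by at least 2-fold were 11 members, beside 4.96% of all features, and the 5 given above were higher, beside 8.95%. YB 449912 was lower by 2.50 ± 0.25 and gene 670615 by 1.94 ± 0.26 (adjusted p = 2.12e-13 and 1.88e-09). Genes 150410, 194605, 2219 and 28605, which rose in the wing by day 3, were lower by 1.27, 1.13, 1.11 and 1.02. HE667780:507628-514496 was lower by 1.11, the overlapping genes 878156 and 878290 by 1.08 each, and HE667780:1224647-1232594 and gene 843550 by 1.03 each. Without the 12 doubted arrays the value of gene 507628 was -0.59, and those of genes 878156 and 878290 were -0.40 and -0.41, all called. The 39 members called with less than 2-fold comprised 3 higher by 0.45 to 0.91 and 36 lower by 0.22 to 1.00.

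Fewer members were called between days in the eye than in the wing, on 6 arrays a day against 18. The range of the 4 eye day means was at least 1 in 57 members, beside 54.6% of all features. Its median over the members was 1.10 against 0.78 in the wing, beside 1.07 and 0.82 over all features. From day 1 to day 3, 7 members rose and 5 fell in the eye, and the 12 compare with 9.23% of all features, 4.43% higher and 4.79% lower. From day 3 to day 5, 7 rose and 9 fell, beside 15%, with 6.99% higher and 8.05% lower. On the deposited scale 9 rose and 1 fell, where the median over all features was 0.76, against -0.072 on the main scale. From day 5 to day 7, 1 rose and 1 fell, beside 2.15%, with 1.05% higher and 1.10% lower. Many of these calls rest on day 3, where 2 of 6 eye arrays were dim, and without the doubted arrays 3 of the 12 calls to day 3 and 3 of the 16 calls to day 5 were kept.

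Gene HE667780:77462-80042 showed a pulse on day 5 in the eye. Its eye medians were 3.00, 2.89, 5.31 and 2.49 on the 4 days. On day 5 the malleti values were 3.98, 5.51 and 2.96, and the plesseni values were 8.68, 5.43 and 5.19. The highest of these, replicate 16, was a dim array. The rise was 2.35 ± 0.40 and the following fall 2.68 ± 0.40 (adjusted p = 2.04e-05 and 3.61e-06), and without the doubted arrays they were 1.93 and -2.06, both called. In the arrays at gain 440 alone the rise was 3.49 and the fall 3.78, and in those at gain 460 alone they were 1.25 and 1.59, where neither was called. With only the groups compared in the fit, the fall was not called either, and 0 members were called in that eye step, beside 16 features in all.

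YB 449912 and gene 670615 show how few arrays can move an eye value. The 3 malleti eye arrays of day 3 read 4.64, 4.17 and 4.38 for YB 449912, while the plesseni arrays read 12.41, 12.70 and 5.92. The 2 high values are those of the dim replicates 8 and 60. Accordingly the rise to day 3 of 1.93 ± 0.62 (adjusted p = 0.0363) was 0.48 without the doubted arrays (adjusted p = 0.58), and the fall to day 5 of 2.97 ± 0.62 was -1.19 (adjusted p = 0.076). The values of gene 670615 were 1.95, with 0.41 without the doubted arrays, and -2.67, with -0.75. In both steps together, gene 463772 kept its fall and rise without those arrays, at -1.42 and 2.16 (adjusted p = 0.032 and 3.06e-04), as did gene 1234411 its rise, at 2.84 (adjusted p = 5.64e-04). HE667780:1309889-1319346 fell by 2.18 ± 0.58 from day 1 to day 3 (adjusted p = 0.0105), and by 1.87 without the doubted arrays (adjusted p = 0.011). Gene 194605 rose by 1.42 and gene 285565 by 1.09 over the same days, and neither was called without those arrays. The other eye changes of at least 2-fold were, from day 1 to day 3, rises of 1.40 in HE667780:879392-886137 and 1.15 in gene 949155 and falls of 1.31 in YB 787289, 1.28 in HE667780:1043068-1045547 and 1.06 in HE667780:304014-315920. From day 3 to day 5 they were rises of 2.24 in HE667780:1045873-1048387, 1.75 in gene 1309889, 1.43 in gene 409336 and 1.17 in gene 1043068, and falls of 2.10 in gene 843550, 1.84 in gene 841353, 1.24 in gene 949155 and 1.16 in gene 879392. None of these 13 values was called without the doubted arrays. HE667780:898556-947644 rose by 1.26 ± 0.37 from day 5 to day 7 (adjusted p = 0.0495), and by 0.70 without the doubted arrays (adjusted p = 0.38), a call lost in 60 of the 96 fits that left out 1 array.

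Between wing sections, few differences were called, among the members as over all features. Averaged over days and races, limma called 0 of 99 members between the distal and the proximal forewing, where 0.522% of all features were called, and 7 had an unadjusted p under 0.05. It called 0 between the hindwing and the forewing, beside 0.0546%, with 5 at an unadjusted p under 0.05. The closest in the forewing were gene 463772, higher distally by 0.65 ± 0.19 (adjusted p = 0.0854), and gene 1234411, lower distally by 1.10 ± 0.34 (adjusted p = 0.162). Without the doubted arrays both were called, at 0.68 and -1.22 (adjusted p = 0.028 and 0.0027). In the hindwing they were gene 285565, at 0.40 ± 0.15 (adjusted p = 0.995), and gene 670615, at 0.63 ± 0.27 (adjusted p = 1.0). The 95% intervals had a median half-width of 0.43 over the 99 members along the forewing and of 0.38 between hindwing and forewing.

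On day 1, however, 2 members differed along the forewing, beside 1.04% of all features. Gene 1234411 read 11.29, 10.94 and 11.08 in malleti and 9.60, 9.95 and 9.80 in plesseni in the proximal forewing. Its distal values were 8.42, 8.17 and 8.65 in malleti and 5.83, 6.53 and 5.80 in plesseni. The sections did not overlap, and the distal section was lower by 3.21 ± 0.69 (adjusted p = 0.00428). None of these 12 arrays was among the doubted ones. The difference was -3.17 at gain 440 alone and -3.31 at gain 460 alone, not called in these smaller sets (adjusted p = 0.275 and 1.0). Within each section the malleti arrays were also all above the plesseni arrays, although race was not called there, at -1.32 in the proximal and -2.36 in the distal forewing (adjusted p = 0.675 and 0.929). The hindwing on day 1 ranged from 5.98 to 12.75 and overlapped both sections. On days 3 and 5 the distal minus proximal difference was -1.30 ± 0.69 and 0.16 ± 0.69 (adjusted p = 0.646 and 1.0). On days 3, 5 and 7 limma called 0 members along the forewing, with 9, 5 and 2 at an unadjusted p under 0.05, beside 0.0623%, 0.00% and 0.0701% of all features called.

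Gene 285565 went the other way on day 1. Its proximal values were 4.78, 4.62 and 4.55 in malleti and 4.52, 4.67 and 4.15 in plesseni, and its distal values were 5.96, 5.37 and 5.87 in malleti and 6.12, 6.40 and 5.73 in plesseni. The distal section was higher by 1.36 ± 0.34 (adjusted p = 0.0201), and the sections did not overlap. It was 1.03 on the deposited scale and 0.79 on the scale centred on array medians, called in neither (adjusted p = 0.30 and 0.176), and it was lost in 6 of the 96 fits that left out 1 array. Between the hindwing and the forewing limma called 0 members on each day, with 4, 4, 7 and 1 at an unadjusted p under 0.05 on days 1, 3, 5 and 7, beside 0.249%, 0.0546%, 0.00779% and 0.0390% of all features called, and the smallest adjusted p was that of gene 670615 on day 1, at 1.96 ± 0.55 (adjusted p = 0.163). Without the doubted arrays that difference was 1.70 (adjusted p = 0.00733). Over the 4 days, slide as a block gave 1 call between hindwing and forewing, and only the groups compared gave 3. Beside these were 39 and 106 calls in 51328 tests over all features.

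Race, the comparison closest to the colour pattern locus, showed at 2 scaffold genes in the wing and at none of the 13 walk features. Averaged over sections and days, 2 of 99 members were higher in plesseni and 0 lower, beside 1.08% of all features, 0.787% higher and 0.296% lower. Both are small and lie apart from each other: gene 571676 spans 974 bases and is measured by 9 probes, and gene 421500 spans 1389 bases and is measured by 3.

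Gene 571676 was higher in the plesseni wing on the early days. On day 3 its plesseni values were 5.59, 5.66 and 5.88 in the proximal forewing, 6.71, 7.37 and 7.44 in the distal section and 4.78, 7.19 and 8.11 in the hindwing. All 9 malleti wing arrays of day 3 lay between 2.44 and 3.67, near the low end of the scale, where 10% of values lie below 3.47. Whether these values were above background was not tested, so the difference is one of measured values. The races did not overlap in any section, and the difference was 3.65 ± 0.47 (adjusted p = 2.59e-07), beside 1.34% of all features called on that day. It was 3.36 in the 10 arrays scanned at gain 440 and 4.40 in the 8 scanned at gain 460, again without overlap, and 3.98 without the doubted arrays (adjusted p = 1.18e-08). In single sections it was called in the distal forewing, at 4.43 ± 0.81 (adjusted p = 0.00422), and in the hindwing, at 3.95 ± 0.81 (adjusted p = 0.0112), beside 0.0234% and 0.0857% of all features. In the proximal forewing it was 2.56 ± 0.81 (adjusted p = 0.244), where 0.234% of all features were called. On the deposited scale the values were 3.69 for the distal forewing and 4.92 for the hindwing, not called (adjusted p = 0.597 and 0.203). The distal call was lost without replicate 56, and the hindwing call without replicate 35, 36, 57 or 58.

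On day 1 the malleti wing values of gene 571676 lay between 2.68 and 3.48. The plesseni values were 3.90, 2.61 and 5.17 in the proximal forewing, 5.72, 7.03 and 5.25 in the distal section and 5.05, 3.30 and 6.14 in the hindwing. The races overlapped except in the distal forewing, and the difference was 1.92 ± 0.47 (adjusted p = 0.0112), beside 1.75% of all features. It was 1.59 on the scale centred on array medians and 1.86 on the deposited scale, called in neither (adjusted p = 0.202 and 0.378), and the call was lost without replicate 50 or 78. On days 5 and 7 the differences were -0.16 and -0.18, with 95% intervals from -1.09 to 0.77 and from -1.11 to 0.75. On these days limma called 0 of the 99 members for race across the wing, with 4 and 2 at an unadjusted p under 0.05, beside 0.803% and 0.281% of all features. The race difference was thus larger on days 1 and 3 than on days 5 and 7, by 2.95 ± 0.47 (adjusted p = 6.04e-05), a contrast chosen after the data were seen, which called 2 of the 99 members beside 1.03% of all features.

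Over all days the wing difference of gene 571676 was 1.31 ± 0.23 (adjusted p = 4.20e-04). It was 1.08 in the arrays at gain 440 and 1.82 in those at gain 460 (adjusted p = 0.347 and 0.625), and 1.17 on the deposited scale (adjusted p = 0.123). In single sections over all days it was not called, with 0.67, 1.75 and 1.49 in the proximal forewing, the distal forewing and the hindwing (adjusted p = 1.0, 0.237 and 0.648). Tests of the difference itself with limma called 0 members for a race difference that differed between the forewing sections, with 0 at an unadjusted p under 0.05. Between hindwing and forewing they called 0, with 1 at an unadjusted p under 0.05. Both tests called 0 of all 12832 features, so they do not show that the race difference was alike across sections.

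In the eye, the level of gene 571676 differed between arrays of a race. On day 3 the malleti eye values were 7.17, 7.79 and 7.47, and the plesseni values were 3.30, 3.69 and 5.18, of which the first 2 are the dim replicates 8 and 60. On day 1 the malleti values were 6.40, 3.50 and 3.21, and the plesseni values 7.71, 6.11 and 7.15. Over all days the eye race difference was 0.13 ± 0.40 (adjusted p = 0.894), with a 95% interval from -0.68 to 0.93. Whether race acts differently in wing and eye was not tested for this gene. The 2 arrays of doubtful tissue on day 7 also stood apart here: replicate 69, labelled proximal forewing, read 5.37, against 2.62 for replicate 67, labelled eye.

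Gene 421500 had the second race difference and varied more among replicates. On day 1 its plesseni values were 9.51, 8.92 and 5.98 in the proximal forewing, 9.29, 9.81 and 9.23 in the distal section and 9.84, 9.06 and 10.68 in the hindwing. Its malleti values were 6.89, 6.60 and 6.48, 6.58, 5.55 and 5.74, and 6.65, 7.27 and 4.37 in the same sections. The races were apart in the distal forewing and the hindwing, and 1 proximal plesseni array lay below all 3 malleti ones. The difference was 2.91 ± 0.68 (adjusted p = 0.00763). On day 3 the plesseni values fell into high and low ones within each section: 10.65, 5.49 and 10.61, then 10.27, 5.57 and 5.19, then 5.06, 10.27 and 5.09. The difference of 2.45 ± 0.68 (adjusted p = 0.0473) was 3.04 at gain 440 and 1.53 at gain 460, and 39 of the 96 fits that left out 1 array lost it. Over all days it was 1.27 ± 0.34 (adjusted p = 0.0403), lost in 29 of those fits. Its early minus late difference was 2.80 ± 0.68 (adjusted p = 0.0185).

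**Figure D5:**
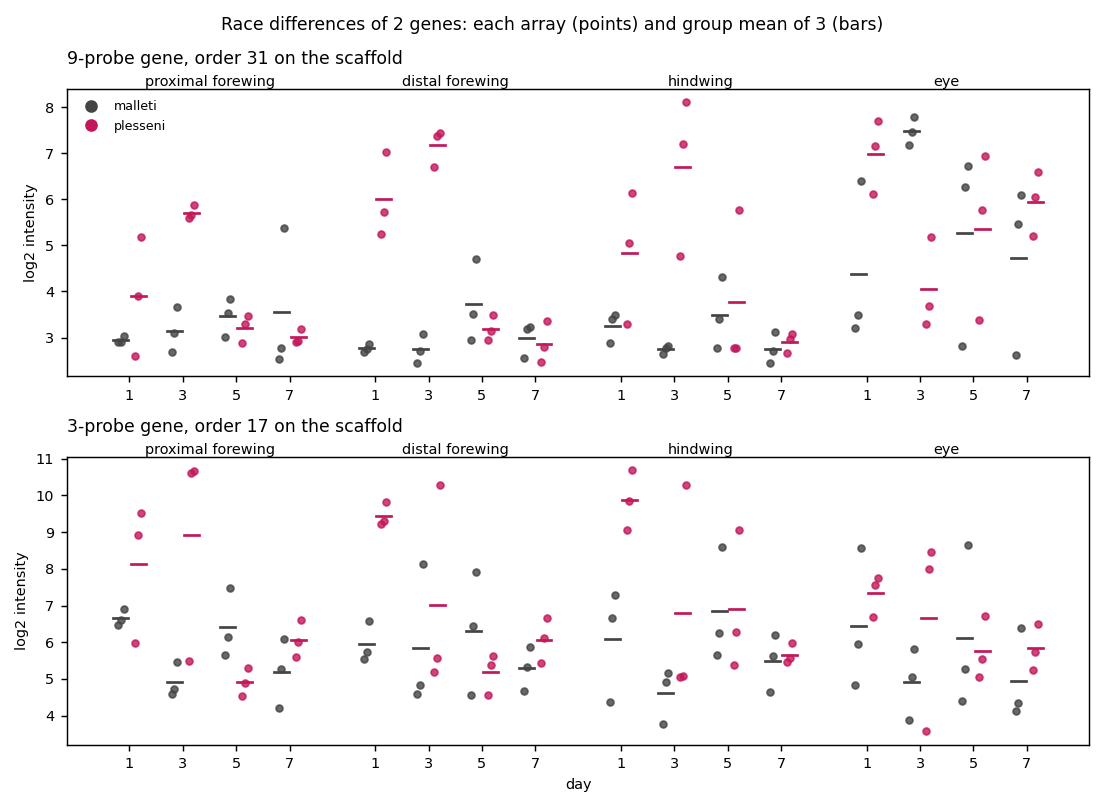
Log2 intensity (y axis) of gene 571676 (order 31, upper panel) and gene 421500 (order 17, lower panel) by day (x axis) in each tissue, for malleti (grey) and plesseni (magenta). Points are arrays and bars are means of 3. On day 3 all 9 plesseni wing points of the upper panel lie above all 9 malleti points, which end at 3.67, and in the lower panel the plesseni points split into high and low ones.

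In single wing sections over all days, 0 of 99 members were called for race, with 3 in the proximal forewing, 6 in the distal section and 3 in the hindwing at an unadjusted p under 0.05. Across all features, limma called 0.0312% in the proximal forewing and none in the distal forewing or the hindwing. The members with the smallest adjusted p were, besides gene 571676, gene 624527 with 0.82 ± 0.36 and YB_WALK:761217-786948 with -0.73 ± 0.35 in the proximal forewing, HE667780:128526-134217 with -0.57 ± 0.25 in the distal forewing (adjusted p = 0.882), and YB_WALK:674530-682676 with -0.90 ± 0.24 in the hindwing (adjusted p = 0.648).

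In the eye 2 members were lower in plesseni over all days and 0 higher, beside 0.966% of all features, 0.452% lower and 0.514% higher. Gene HE667780:459629-462121 was lower by 1.58 ± 0.38 (adjusted p = 0.0389). Its day 3 values were 10.78, 10.42 and 10.73 in malleti and 8.59, 8.01 and 8.23 in plesseni, of which 2 are the dim replicates 8 and 60, apart by more than either spread, whereas on day 5 they were 8.60, 9.86 and 9.11 against 6.85, 9.87 and 8.71. The call was kept without the doubted arrays, at -1.63 (adjusted p = 0.032), and lost on the deposited scale, at -2.08 (adjusted p = 0.236), on the scale centred on array medians (adjusted p = 0.0659), with slide as a block (adjusted p = 0.0602), with only the groups compared (adjusted p = 0.57) and in 11 of the 96 fits that left out 1 array. YB 673428 was lower by 0.78 ± 0.19 (adjusted p = 0.0347). Without the doubted arrays the difference was -0.53, not called (adjusted p = 0.409), and the call was also lost on the deposited and centred scales, with slide as a block and with only the groups compared. Its day 7 values were 12.62, 12.39 and 12.86 in malleti and 10.24, 11.80 and 11.89 in plesseni.

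On single days in the eye, 38 members were called for race on day 3, beside 31.2% of all features. That comparison sets 3 malleti arrays against 1 bright and 2 dim plesseni arrays, and 0 of the 99 were called without the doubted arrays, where 1 plesseni array was left and is assumed to vary like the other groups. On day 1, where 1.54% of all features were called, YB 449912 was lower in plesseni by 3.10 ± 0.88 (adjusted p = 0.0490). Its malleti values were 4.38, 6.57 and 10.02 and its plesseni values 4.18, 4.10 and 3.38. The highest malleti value was that of replicate 73, a dim array, and without the doubted arrays the difference was -1.59 (adjusted p = 0.18). In the wing sections on single days limma called gene 571676 in the 2 groups given above and 0 other members. On days 5 and 7 in the eye it called 0, with 8 and 9 at an unadjusted p under 0.05, beside 0.0234% and 0.0156% of all features called.

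Of the 99 members, 43 were called in no wing step, beside 44.2% of all features, and 22 in no wing step, no eye step and not between eye and wing, beside 21.1%. Gene HE667780:1020412-1023980 had the smallest spread over the 96 arrays, with an SD of 0.35 around a mean of 12.79.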

How the data were processed

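Total RNA of pupal wing sections and eyes was hybridised to custom NimbleGen arrays of 60-base probes, 1 Cy3-labelled sample to an array, per the labels. For each array the authors deposited a linear intensity for every feature. The submitters' processing notes name RMA, which summarises the probes of a feature; no source used here gives its settings or the genome build. Groups came from the labels for race, tissue and day. The array file names gave the slide and the detector gain: 8 slides of 12 arrays, with 60 arrays at gain 440 and 36 at gain 460.

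Intensities were put on the log2 scale and brought to a common distribution over the 96 arrays by quantile normalization (limma version 3.58.1, R version 4.3.3). A model with 32 group means, leaving 64 residual degrees of freedom, was fitted to all 12832 features, and contrasts with equal weights were tested with limma's eBayes. P-values of a contrast were adjusted over all features by the Benjamini-Hochberg method and called under 0.05. Race is plesseni minus malleti. The procedure was tested on simulated data. Labels call replicates independent without further detail, so p-values measure the spread between these samples, and the number of arrays limits the precision. Tables and figures were made with Python version 3.11.15, numpy version 2.4.6, pandas version 2.3.3 and matplotlib version 3.10.9.

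The members and lists were chosen with earlier results of these data known. Named members were, per comparison, those called with at least 2-fold change, up to 25, or the 2 with the smallest adjusted p where none was called. For race in the eye on day 3, which holds the dim replicates 8 and 60, members are summarised by their count. Alternatives were the log2 intensities as deposited, centring by array median, a slide block, each gain alone, no features from the lowest 25% of mean signal, eBayes with trend and robust options, only the groups compared, no doubted arrays and no single replicate. The contrast of early against late days was added after the data were seen. No sequences are printed, since no file used here holds them for these members.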

Additional observations from a re-analysis of the deposited data

Results flagged for a closer look

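Between wing and eye, 22 changes between days differed at an adjusted p under 0.05 in limma's test of the difference, by at least 2-fold. In the 3 steps in turn these were 5, 15 and 2 of the 99 members, beside 1055, 1690 and 73 of all 12832 features. From day 1 to day 3 the wing step exceeded the eye step by 2.73 in HE667780:28605-48613, by 2.28 in HE667780:150410-171286, by 2.16 in HE667780:194605-232747 and by 1.72 in HE667780:285565-302984, while the difference was -1.33 in HE667780:949155-958304.

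From day 3 to day 5 the difference between the wing step and the eye step was 3.63 in HE667780:1234411-1236211, 2.03 in HE667780:463772-482472, 2.02 in gene 949155, 1.72 in HE667780:1241121-1256074, 1.64 in HE667780:128526-134217 and 1.02 in HE667780:542743-555717. It was -2.56 in gene 285565, -2.12 in YB_WALK:670119-671182, -2.03 in HE667780:414733-417102, -1.89 in HE667780:875179-876242, -1.81 in HE667780:77462-80042, -1.60 in YB_WALK:787289-791187, -1.54 in HE667780:612159-613439, -1.36 in gene 28605 and -1.31 in HE667780:843832-867595. Since 2 of the 6 eye arrays of day 3 were dim, the values without the 12 doubted arrays are also given. Of the 15 differences, 6 were then called, at 3.23 in gene 1234411, -2.93 in gene 285565, 1.32 in gene 949155, -1.46 in gene 28605 and -1.55 in gene 843832, with gene 463772 as the other one (adjusted p = 0.0308). The other 9 were not, among them YB 670119 at -0.49 and gene 875179 at -0.36 (adjusted p = 0.65 and 0.71), and gene 612159 at 0.31, of opposite sign. From day 5 to day 7 the difference was 1.96 in gene 77462 and -1.72 in HE667780:898556-947644, and neither was called without the doubted arrays (adjusted p = 0.17 and 0.19).

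The race difference across the wing differed between the early days, 1 and 3, and the late days, 5 and 7, by 2.95 in HE667780:571676-572649 and by 2.80 in HE667780:421500-422888. Both were called under each of the alternative scales and fits that were run for this contrast, except that gene 571676 was not tested without the dimmest features and that neither gain alone was run. Both were also called in all 96 fits that left out 1 array.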

How the results depend on the processing

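No paired analysis was possible because each replicate number from 1 to 96 occurs once. Counts below are called members of 99, and calls over all features moved as well. Race by tissue and day on the deposited scale called 8259 of 205312 over all features, against 4351 in the main fit. The forewing sections by day with only the groups compared called 2587 of 51328, against 151. Race in the eye without replicate 82 called 2335 of 12832, against 124. Without the 12 doubted arrays, 1923 features were called for the wing minus eye step of days 1 to 3, against 1103. Race across the wing then called 304, against 139. On the deposited scale eye minus wing called 3024, against 6139, and at gain 460 alone it called 1855. The counts of members by setting follow. On the deposited scale they were 14 and 3 for the wing steps of days 1 to 3 and 5 to 7, 0, 10 and 1 for the 3 eye steps, 3 and 0 for the wing minus eye steps of days 1 to 3 and 5 to 7, 18 for eye minus wing, 0 for race in the eye, 1 for race across the wing and 67 for race by tissue and day. Centred on array medians they were 0, 3 and 1 for the eye steps, 7 and 0 for the wing minus eye steps of days 3 to 5 and 5 to 7, 5 for the forewing sections by day and 0 for race in the eye. At gain 440 alone they were 14 and 4 for the wing steps of days 1 to 3 and 5 to 7, 3, 2 and 1 for the eye steps, 2, 3 and 1 for the wing minus eye steps, 0 for the forewing sections by day and 0 for race across the wing. At gain 460 alone, with 36 arrays, they were 7, 9 and 0 for the wing steps, 0 for every eye and wing minus eye step, 12 for eye minus wing and 0 for the forewing sections by day and race across the wing. With slide as a block they were 5 for the eye from day 5 to day 7, 1 for the hindwing by day and 0 for race in the eye. Without the dimmest 25% of features, which removes gene HE667780:571676-572649, they were 5 for the wing and 1 for the eye and 1 for wing minus eye from day 5 to day 7, and 1 each for race across the wing, by day and early minus late. With trend and robust options the eye from day 5 to day 7 had 1. With only the groups compared, the eye steps had 1, 1 and 0, the forewing sections 2, by day 25, the hindwing by day 3, and race 1 in the distal forewing, 0 in the eye, 10 by day and 12 by tissue and day. Without the 12 doubted arrays the counts were 16 for the wing and 1 for the eye from day 5 to day 7, 18 and 0 for the wing minus eye steps of days 1 to 3 and 5 to 7, 3 for the forewing sections, 4 by day, 3 for the hindwing by day, and for race 1 in the distal forewing, 1 in the eye, 4 across the wing, 9 by day and 8 by tissue and day. Some of these settings hold fewer arrays or features, and why the counts moved was not tested.

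Leaving out 1 array at a time gave 24 to 28, 34 to 48 and 7 to 13 for the wing steps, 3 to 30, 8 to 26 and 1 to 19 for the eye steps, 4 to 22, 10 to 29 and 0 to 6 for the wing minus eye steps, 50 to 61 for eye minus wing, 0 to 1 for the forewing sections, 1 to 2 by day, 0 to 1 for the hindwing by day, 0 to 31 for race in the eye, 1 to 3 across the wing, 3 to 6 by day, 18 to 56 by tissue and day and 2 to 3 early minus late. The highest counts of 30, 26, 22, 29 and 31 came without replicate 82, the plesseni eye array of day 3 that was not called dim, and 19 without replicate 38. The lowest of race by tissue and day came without replicate 60.

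Without the doubted arrays these values changed sign: gene HE667780:1043068-1045547 in the eye to day 3, 0.45, and to day 5, -0.89, and for race in the eye on day 3, 0.83; gene HE667780:1045873-1048387 in the eye to day 5, -1.23, and for race, 2.20; HE667780:612159-613439 in wing minus eye to day 5, 0.31; and for race in the eye on day 3 HE667780:613478-616174, 0.83, HE667780:1199653-1200594, 0.35, HE667780:1292429-1293799, 1.14, and HE667780:507628-514496, 0.75. On the deposited scale these were HE667780:949155-958304 in the eye to day 3, -0.0032, and to day 5, 0.11, and HE667780:542743-555717 in wing minus eye to day 5, -0.36.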
